A study of Mus musculus with 27 samples.

Results

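The comparison described here sets AP-positive retinal cells of Brn3b HET mice against those of Brn3a HET mice at postnatal day 3 (P3). It rests on 4 of the 27 libraries of the series, 2 from each genotype, chosen by their titles, with transcripts summed per gene. Alkaline phosphatase (AP) was placed at 1 of 2 transcription factor loci, Pou4f2 (Brn3b) or Pou4f1 (Brn3a), so that cells with an active locus could be pulled from dissociated retina by a bead-coupled antibody against AP. Brn3b HET mice carried 1 AP allele and 1 intact allele of Brn3b (Brn3b AP/WT), and Brn3a HET mice carried 1 AP allele and 1 intact allele of Brn3a (Brn3a AP/WT), so in each group 1 copy of the marked gene was replaced and the other factor was not targeted. All mice are given as C57Bl/6, and RNA of the bead-bound (AP-positive) cells is compared throughout unless the unbound cells are named. Beside them stand 4 libraries from Brn3b KO (Brn3b AP/KO) and Brn3a KO (Brn3a AP/KO) retinas of the same age, 2 each, in which the marked gene has no intact allele, and 1 library of unbound cells from each genotype. The labels do not say how many retinas or litters a library holds. The p-values thus measure the spread between these libraries, and how much of it lies between animals is not known. The source names of the Brn3b libraries name Brn3a, whereas their titles and genotype entries name Brn3b, and the genotype entry of Brn3a KO replicate 2 names Brn3b, whereas its title and source name give Brn3a. Libraries are called here by their titles.

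Retinal ganglion cells are the output neurons of the retina, and they fall into many types that differ in dendrite shape, light response and brain target. The Brn3 factors are POU-domain DNA-binding proteins that are made in overlapping sets of these types. In mouse, Brn3b is made early and widely and is needed for the survival and axon growth of many ganglion cells, Brn3a is tied to particular dendrite shapes, and Brn3c (Pou4f3) marks a smaller set. Melanopsin ganglion cells, which sense light themselves, largely make Brn3b and lack Brn3a.

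The 4 libraries held 33051160 to 36498423 estimated counts, and 16673 genes were tested with edgeR's quasi-likelihood test in a fit of the 12 AP-positive retinal libraries of the series. These are the 8 libraries of P3 and 4 Brn3b HET and Brn3b KO libraries of embryonic day 15 (E15). The E15 libraries are not part of the contrast, but they enter the shared estimate of the spread, the choice of genes tested and the scaling. Levels are CPM, the share of a library's counts that fell on a gene, scaled between libraries. Log2 fold changes are Brn3b HET over Brn3a HET with their SE, and a call is a Benjamini-Hochberg adjusted p under 0.05. Across genes the log2 CPM of the 2 Brn3b HET libraries correlated at 0.9683 and that of the 2 Brn3a HET libraries at 0.9748, against 0.9399 to 0.9512 between the groups. The Y-linked gene Ddx3y stood at 0 and 31.2 CPM in Brn3b HET replicates 1 and 2, and at 0 and 112 CPM in Brn3a HET replicates 1 and 2. Eif2s3y, also Y-linked, had 0.217 and 34.2 CPM in Brn3b HET and 0 and 69.5 CPM in Brn3a HET libraries, and Kdm5d at 32.1 and 49.9 CPM in Brn3b HET and 25.9 and 68.6 CPM in Brn3a HET libraries. In both groups replicate 1 was thus the lower for all 3 genes, and by Ddx3y the replicates were not repeats of 1 RNA sample. Replicate 1 held Kdm5d reads, as did the Brn3b HET and Brn3a HET unbound libraries (26.9 and 29.1 CPM), which had 0 CPM of Ddx3y and Eif2s3y. By this test 642 genes differed, which is 3.85% of those tested. Of these, 338 were higher in Brn3b HET cells (2.03%) and 304 were lower (1.82%), while 4793 genes (28.7%) had an unadjusted p under 0.05. Without the E15 libraries 872 genes were called, 324 higher and 548 lower. The median log2 fold change over all genes was 0.01.

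The genes highest in Brn3b HET cells relative to Brn3a HET cells were, by fold among the named genes, Tbx20, Btg3, Eomes, Krt73 and the melanopsin gene Opn4, of which Tbx20, Eomes and Opn4 also stood above the unbound cells. Those lowest were Ftl2, Tusc5, the touch channel Piezo2, the endopeptidase gene Ecel1, Shisa9 and the neuropeptide Y receptor Npy1r, followed by the homeodomain factors Isl2 and Pou4f3. The RefSeq promoter windows of a few of these genes, 250 bases before to 50 after the transcription start, are shown as the sequence context of the genes that head both directions. They are given in GRCm38.p6 coordinates, 5′ to 3′ on the gene's strand, in lower case with matches to TAATTA, the core bound by many homeodomain and POU proteins, in capitals.
Tbx20, chr9:24774254-24774553, minus strand: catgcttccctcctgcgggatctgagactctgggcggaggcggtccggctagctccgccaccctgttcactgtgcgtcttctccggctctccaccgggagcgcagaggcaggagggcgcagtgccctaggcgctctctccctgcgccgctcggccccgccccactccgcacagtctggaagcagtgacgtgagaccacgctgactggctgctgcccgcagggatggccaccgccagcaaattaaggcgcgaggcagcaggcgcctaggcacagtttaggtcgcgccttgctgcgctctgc
Eomes, chr9:118477939-118478238, plus strand: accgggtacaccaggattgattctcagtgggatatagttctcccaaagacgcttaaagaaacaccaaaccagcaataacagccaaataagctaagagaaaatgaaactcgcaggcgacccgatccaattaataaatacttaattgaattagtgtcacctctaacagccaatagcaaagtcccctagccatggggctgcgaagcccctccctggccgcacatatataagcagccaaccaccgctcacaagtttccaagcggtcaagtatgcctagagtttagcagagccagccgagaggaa
Krt73, chr15:101802311-101802610, minus strand: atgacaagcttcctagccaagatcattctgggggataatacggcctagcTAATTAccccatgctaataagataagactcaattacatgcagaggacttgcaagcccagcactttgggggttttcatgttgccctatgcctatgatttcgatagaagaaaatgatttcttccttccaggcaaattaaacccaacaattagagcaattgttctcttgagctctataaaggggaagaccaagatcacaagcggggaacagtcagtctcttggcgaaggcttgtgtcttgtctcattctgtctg
Npy1r, chr8:66697172-66697471, plus strand: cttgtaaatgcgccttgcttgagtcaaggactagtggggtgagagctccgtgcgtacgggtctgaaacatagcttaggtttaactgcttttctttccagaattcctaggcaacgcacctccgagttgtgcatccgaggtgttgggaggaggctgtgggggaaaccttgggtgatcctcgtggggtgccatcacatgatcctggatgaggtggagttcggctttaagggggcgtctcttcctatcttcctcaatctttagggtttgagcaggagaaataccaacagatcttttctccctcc
The core was found in the window of Krt73, a keratin gene that was higher in Brn3b HET cells, and not in the other 3 windows. Among the leading genes whose windows are not printed, Bnc2, which was lower in Brn3b HET cells, also held it.
Over both strands, TAATTA was present in 5.29% of the 32851 promoter windows in the RefSeq table and in 3.6% of the 11660 genes tested that had a window. It was present in 10 of 236 genes called higher (4.24%) and in 3 of 207 called lower (1.45%). The longer Brn3 motif ATAATTAAT, which contains the core, was present in 0.274% of all windows, in 0.154% of the tested genes, and in 0 of the 236 and 0 of the 207. A gene counted once if any of its windows held the motif, so shares of genes and shares of windows are unlike units. The T-box motif AGGTGTGA was present in 1.28% of all windows, in 1.06% of the tested genes, in 4 of the 236 (1.69%) and in 1 of the 207 (0.483%). A motif missing from a window says only that these letters are not in it.

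The Brn3 genes themselves were read first, since 1 allele of 1 of them was replaced in each group. Pou4f1 (Brn3a) stood at 170 and 249 CPM in Brn3b HET libraries, against 484 and 443 CPM in Brn3a HET libraries, so the groups did not overlap. Its log2 fold change of -1.13 ± 0.47 did not pass the test (edgeR, adjusted p = 0.152). Pou4f2 (Brn3b) stood at 188 and 286 CPM in Brn3b HET libraries and at 242 and 252 CPM in Brn3a HET libraries, which overlapped (log2 fold change -0.04 ± 0.25, adjusted p = 0.922). Thus cells in which 1 Brn3b allele was replaced, and cells in which both were intact, were not told apart by Pou4f2 RNA in these libraries. Such bulk levels do not give the level per ganglion cell, since the summed ganglion cell markers given below also stood apart between the groups. Pou4f3 (Brn3c) stood at 8.12 and 9.94 CPM in Brn3b HET libraries, against 70.8 and 72.0 CPM in Brn3a HET libraries, and fell by 2.97 ± 0.65 on the log2 scale (adjusted p = 0.0425). Per transcript length, Brn3b HET cells held 150 and 226 TPM of Pou4f1 and 108 and 173 TPM of Pou4f2, whereas Brn3a HET cells held 412 and 380 TPM of Pou4f1 and 139 and 147 TPM of Pou4f2. Pou4f3 was the lowest of the 3 in both groups, at 6.32 and 8.17 TPM in Brn3b HET and 55.1 and 57.3 TPM in Brn3a HET cells. In the unbound cells Pou4f1 stood at 65.1 CPM in the Brn3b HET library and 9.24 CPM in the Brn3a HET library, and Pou4f2 at 13 and 9.30 CPM in the Brn3b HET and Brn3a HET unbound libraries. The libraries from KO retinas checked the labels. Pou4f2 stood at 21.3 and 18.8 CPM in Brn3b KO libraries, against 389 and 266 CPM in Brn3a KO libraries, and Pou4f1 at 62.6 and 89.1 CPM in Brn3b KO libraries, against 16.6 and 10.9 CPM in Brn3a KO libraries. The marked gene was the low one in each KO library, Brn3a KO replicate 2 included.

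Summed marker levels of several cell types stood apart between the genotypes, although few single markers passed the test, and they are given before the genes because they moved with both directions of change. The 20 pan-ganglion cell markers summed to 5082 and 7268 CPM in Brn3b HET libraries, against 12545 and 11546 CPM in Brn3a HET libraries and 2063 and 1186 CPM in the unbound cells of Brn3b HET and Brn3a HET retinas. All 20 had a negative log2 fold change (median -0.92), and 19 did not overlap between the groups, where 33.2% of all genes were lower without overlap. Of the 20, Ebf3, a transcription factor of ganglion cells, passed the test, at 173 and 231 CPM in Brn3b HET and 551 and 479 CPM in Brn3a HET libraries (-1.34 ± 0.29, edgeR adjusted p = 0.0411). Among the defining markers, Rbpms, an RNA-binding protein of ganglion cells, was at 215 and 349 CPM in Brn3b HET and 612 and 595 CPM in Brn3a HET libraries (-1.08, adjusted p = 0.110). The vesicular glutamate transporter Slc17a6 measured 206 and 264 CPM in Brn3b HET and 500 and 526 CPM in Brn3a HET libraries (-1.11, adjusted p = 0.0873).

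Markers of several other retinal cell types ran the opposite way. Not all did: the pigment epithelium sum overlapped, at 17.4 and 12.6 CPM in Brn3b HET and 10.8 and 16.2 CPM in Brn3a HET libraries. The horizontal cell sum, given further below, also overlapped. By the test, 2.03% of all genes were higher and 1.82% lower. The 17 photoreceptor markers summed to 4908 and 3325 CPM in Brn3b HET libraries, against 1326 and 1400 CPM in Brn3a HET libraries, and to 3083 and 3182 CPM in the Brn3b HET and Brn3a HET unbound cells. Of the 16 that were tested, 2 passed as higher, the cone transducin gene Gnat2 and the regulator Prdm1, and the list's median log2 fold change was 1.60. The 24 cell cycle genes summed to 954 and 846 CPM in Brn3b HET and 393 and 402 CPM in Brn3a HET libraries. All 24 had a positive log2 fold change (median 1.25), 23 did not overlap, where 32.2% of all genes were higher without overlap, and 1, the replication helicase gene Mcm7, passed the test. The 20 progenitor and Müller glia markers summed to 2125 and 1767 CPM in Brn3b HET and 1419 and 1398 CPM in Brn3a HET libraries, and 0 passed (edgeR). The 16 amacrine markers summed to 745 and 698 CPM in Brn3b HET and 339 and 344 CPM in Brn3a HET libraries, with 5 higher and 1 lower by the test. In the cell cycle, progenitor and amacrine sums the Brn3b HET libraries stood between the Brn3a HET libraries and the unbound cells, and the photoreceptor sums of Brn3b HET lay above those of the unbound cells. The 10 bipolar markers summed to 892 and 768 CPM in Brn3b HET and 417 and 400 CPM in Brn3a HET libraries, and 0 of the 9 tested passed by edgeR (median -0.19). Within this list Otx2, a factor shared with photoreceptors, had 677 and 495 CPM in Brn3b HET and 168 and 158 CPM in Brn3a HET libraries (1.86, adjusted p = 0.0658), and made up most of the sum. Cabp5 (2.30) and Lhx4 (1.87) also had positive values without overlap, Grik1 (-1.23), Prkca (-0.42) and Trpm1 (-1.27) had negative values without overlap, and the bipolar markers Grm6 and Vsx1 stood under 0.5 CPM in all 4 libraries.

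Markers of microglia were rich in the bead-bound cells of both groups. The 14 microglia and macrophage markers summed to 2427 and 2915 CPM in Brn3b HET and 3464 and 3856 CPM in Brn3a HET libraries, against 29.3 and 9.39 CPM in the Brn3b HET and Brn3a HET unbound cells. Of these, Cd68, a lysosomal protein of phagocytes, passed as lower, at 50.7 and 47.5 CPM in Brn3b HET and 85.6 and 85.1 CPM in Brn3a HET libraries (-0.79 ± 0.19, edgeR adjusted p = 0.05 as rounded, and under it before). Erythroid markers summed to 52.9 and 18.7 CPM in Brn3b HET and 177 and 283 CPM in Brn3a HET libraries, and the globin gene Hba-a1 passed as lower. Vascular markers summed to 337 and 154 CPM in Brn3b HET and 117 and 96.9 CPM in Brn3a HET libraries, below the 663 and 667 CPM of the Brn3b HET and Brn3a HET unbound cells, and 0 of 14 passed by edgeR. In such bulk samples, fewer cells of a type and less RNA per cell cannot be told apart, and the part of these shifts in the genes that follow was not tested beyond the values given with them.

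**Figure D1:**
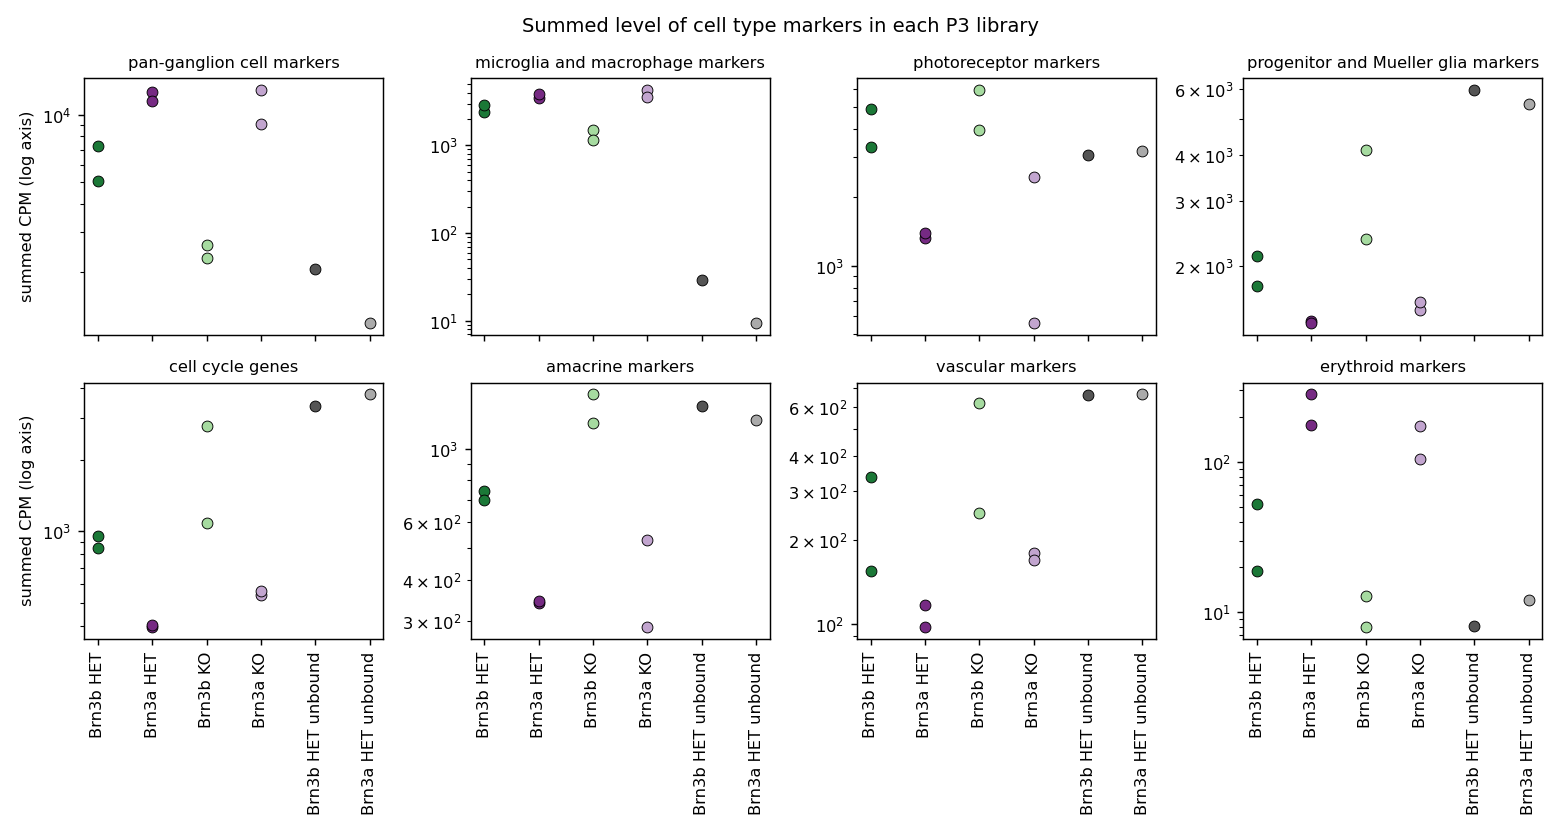
Summed CPM (log axis) of 8 marker lists in each P3 library, for AP-positive cells (Brn3b HET, Brn3a HET, Brn3b KO, Brn3a KO, 2 points each) and unbound cells (1 point each). The pan-ganglion cell sum is 5082 and 7268 CPM in Brn3b HET and 12545 and 11546 CPM in Brn3a HET libraries, while photoreceptor, cell cycle and amacrine sums run the opposite way.

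The unbound cells gave a second yardstick for each called gene. Of the 338 genes higher in Brn3b HET cells, both Brn3b HET libraries stood below both HET unbound libraries for 215, above both for 44 and otherwise for 79. For 315 of the 338, both Brn3a HET libraries stood below both unbound libraries. Over all 16673 genes, both Brn3b HET libraries stood below both unbound libraries for 5483 and above both for 5590, and both Brn3a HET libraries stood below both for 6809 and above both for 6499. Of the 304 genes lower in Brn3b HET cells, both Brn3a HET libraries stood above both unbound libraries for 291, and both Brn3b HET libraries did so for 212. Of the same 304, 233 had a log2 fold change below the pan-ganglion marker median of -0.92 and 71 lay at or above it. The 304 were called by this same contrast (median -1.29, smallest fall 0.53), so this split was largely set by the choice. It does not separate them from the fall of the ganglion cell markers. Between the unbound libraries themselves the median log2 difference, Brn3b HET over Brn3a HET, was 0.02 over the 338 and 0.31 over the 304, with 24 of the 338 and 16 of the 304 over 2-fold apart in the direction of their call.

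Genes of melanopsin ganglion cells gave the largest of the named rises that also stood above the unbound cells. Tbx20, a T-box factor made in Opn4-expressing ganglion cells of the mouse, stood at 57.2 and 104 CPM in Brn3b HET libraries, against 1.27 and 1.75 CPM in Brn3a HET libraries. It was 53.5-fold higher (log2 5.74 ± 0.59, edgeR adjusted p = 0.00260), and the unbound cells held 6.08 CPM in the Brn3b HET and 4.32 CPM in the Brn3a HET library. Eomes (Tbr2), a T-box factor needed for melanopsin cells, had 64.8 and 100 CPM in Brn3b HET and 4.70 and 6.51 CPM in Brn3a HET libraries, with 23.7 and 19.9 CPM in the Brn3b HET and Brn3a HET unbound cells. Its log2 fold change was 3.89 ± 0.38 (adjusted p = 0.00201), and its call held in each of the 4 fits that left out 1 of the compared libraries.

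Opn4, the melanopsin photopigment, was at 20.9 and 27.2 CPM in Brn3b HET and 3.21 and 2.42 CPM in Brn3a HET libraries (3.10 ± 0.62, edgeR adjusted p = 0.0345). The unbound cells held 5.53 CPM of Opn4 in the Brn3b HET and 3.14 CPM in the Brn3a HET library, so Brn3a HET cells were no richer in it than unbound retina. Irx1, an Iroquois homeodomain factor, measured 3.88 and 4.82 CPM in Brn3b HET and 0.152 and 0.501 CPM in Brn3a HET libraries (3.72 ± 0.58, adjusted p = 0.0175), with under 0.2 CPM in both unbound libraries. The peptide gene Adcyap1, which encodes PACAP and is made by melanopsin cells in the adult mouse, went the other way. Adcyap1 measured 9.56 and 12.4 CPM in Brn3b HET and 29.6 and 27.3 CPM in Brn3a HET libraries, and was lower (-1.36 ± 0.28, adjusted p = 0.0383). Of the 15 listed genes of this cell type, 4 were higher, 1 was lower and 10 did not pass, with a median of 0.66. Over all genes, 2.03% were higher and 1.82% lower. Among the listed genes that did not pass were Rasgrp1, at 5.00 and 10.9 CPM in Brn3b HET and 3.27 and 4.98 CPM in Brn3a HET libraries, and Trpc7, a channel of the melanopsin cascade, at under 2 CPM in all 4.

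Tbx3 had 17.2 and 16.6 CPM in Brn3b HET and 6.03 and 5.90 CPM in Brn3a HET libraries and was higher (1.51 ± 0.29, edgeR adjusted p = 0.0315), but the unbound cells held 77.7 and 62.8 CPM in the Brn3b HET and Brn3a HET libraries. Tbr1, a factor of a separate ganglion cell set, was at 24.4 and 38.8 CPM in Brn3b HET and 37.4 and 38.9 CPM in Brn3a HET libraries, which overlapped, and did not pass (-0.26, adjusted p = 0.659). Of the 9 T-box factors, 3 were higher, 0 were lower and 6 did not pass, where 2.03% of all genes were higher.

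Of the 12 named genes with the largest rises, 7 stood above both unbound libraries in both Brn3b HET libraries. Besides Tbx20, Eomes and Opn4 these were Ctxn3, Prkcq, Ndnf and the cone gene Gnat2, which measured 34.2 and 34.1 CPM in Brn3b HET and 6.73 and 5.90 CPM in Brn3a HET libraries. Ctxn3, a small membrane protein gene of the cortexin family, had 12.5 and 20.4 CPM in Brn3b HET and 2.03 and 1.89 CPM in Brn3a HET libraries (3.08 ± 0.44, edgeR adjusted p = 0.0121), with under 1 CPM in the unbound cells. Prkcq, a protein kinase C isoform, was at 27.6 and 38.1 CPM in Brn3b HET and 4.67 and 3.20 CPM in Brn3a HET libraries (3.08 ± 0.32, adjusted p = 0.00304). The unbound cells held 4.70 CPM of Prkcq in the Brn3b HET and 7.80 CPM in the Brn3a HET library, so Prkcq, like Tbx20, was rich in the Brn3b HET cells alone among these 6 libraries. Ndnf, a secreted neurotrophic factor, measured 24.8 and 33.7 CPM in Brn3b HET and 4.06 and 5.68 CPM in Brn3a HET libraries (2.60 ± 0.42, adjusted p = 0.0191), against 21.0 and 18.6 CPM in the Brn3b HET and Brn3a HET unbound cells.

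The remaining named rises did not stand above the unbound cells. Neurog2, a proneural factor of progenitors, had 14 and 19.9 CPM in Brn3b HET and 2.73 and 2.70 CPM in Brn3a HET libraries (2.65 ± 0.43, edgeR adjusted p = 0.0202), below the 61.6 and 26.5 CPM of the Brn3b HET and Brn3a HET unbound cells. Krt73 was at 9.80 and 10.9 CPM in Brn3b HET and 1.33 and 0.752 CPM in Brn3a HET libraries (3.33 ± 0.45, adjusted p = 0.00931), with 10.5 and 12.4 CPM in the Brn3b HET and Brn3a HET unbound cells. Btg3, an anti-proliferative gene, and Kpna2, a nuclear import receptor, were 15.5-fold and 5.51-fold higher, and both stood below the larger of the 2 unbound values. Rpl34 is taken up with the gene copies below.

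**Figure D2:**
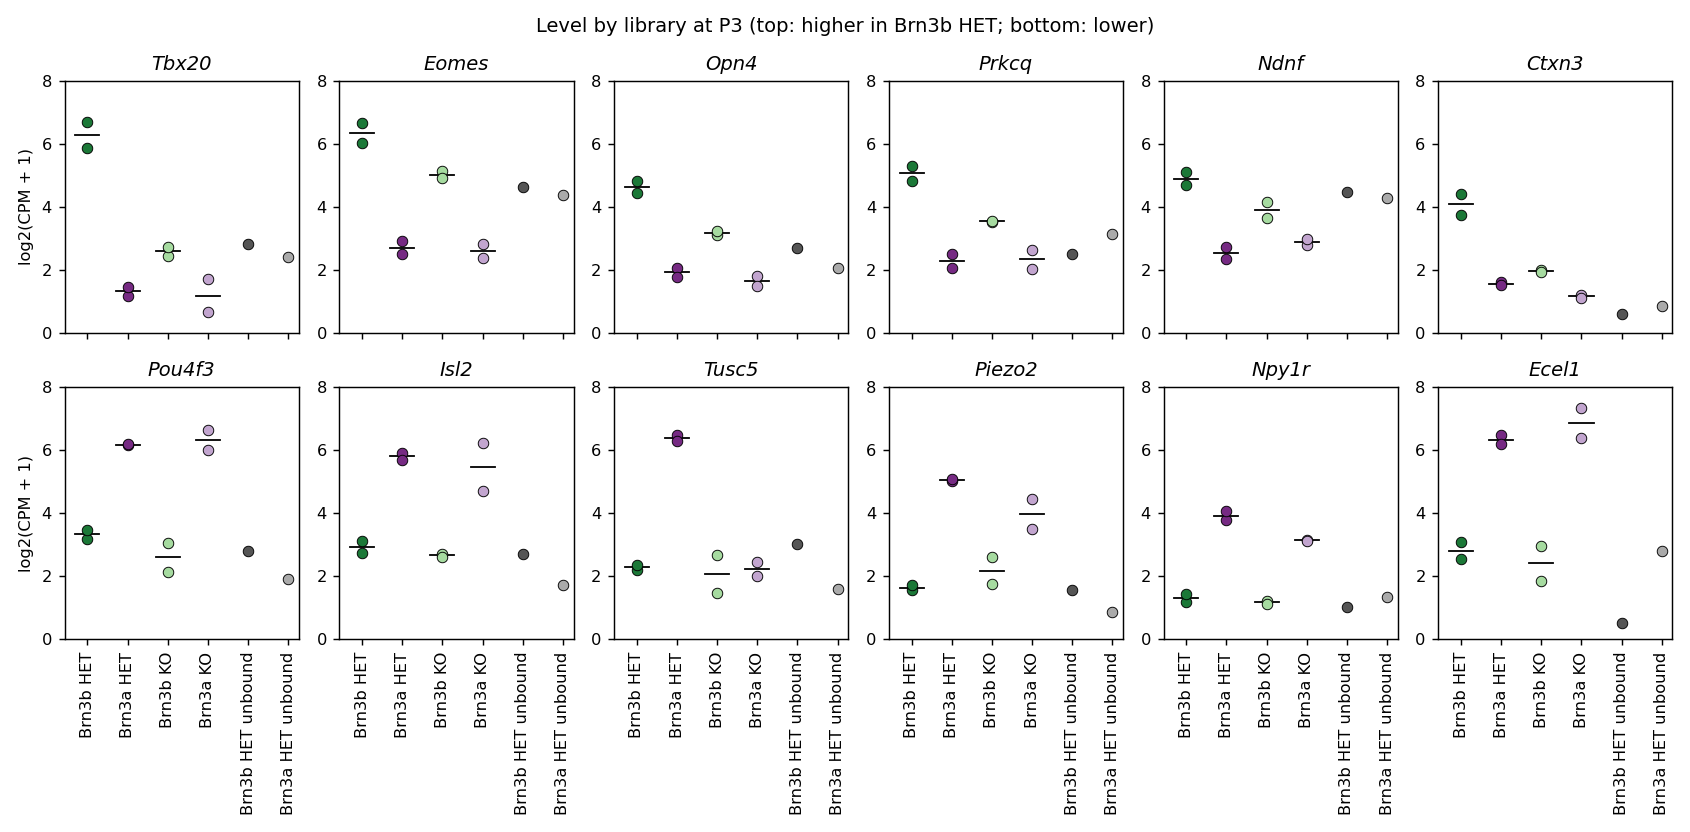
Level of 12 named genes, as log2(CPM + 1), in each P3 library, with Brn3b HET left of Brn3a HET, Brn3b KO left of Brn3a KO and the unbound cells last, and bars at the mean of 2 libraries. Tbx20 reaches 57.2 and 104 CPM in Brn3b HET libraries only, whereas Pou4f3, Isl2 and Ecel1 are high in Brn3a HET and Brn3a KO libraries and Tusc5 is high in Brn3a HET libraries.

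The genes lowest in Brn3b HET cells were found in the Brn3a HET cells above the unbound retina. Tusc5 (Trarg1), which encodes a membrane trafficking protein, measured 3.61 and 4.07 CPM in Brn3b HET and 88.8 and 77.9 CPM in Brn3a HET libraries (-4.43 ± 0.65, edgeR adjusted p = 0.0132). The unbound cells held 7.08 CPM of Tusc5 in the Brn3b HET and 1.99 CPM in the Brn3a HET library, so Brn3b HET cells showed no more of it than unbound retina. Piezo2, a mechanically gated cation channel, had 1.93 and 2.25 CPM in Brn3b HET and 31.1 and 32.7 CPM in Brn3a HET libraries (-3.92 ± 0.50, adjusted p = 0.00779). Npy1r, a receptor for neuropeptide Y, was at 1.28 and 1.68 CPM in Brn3b HET and 12.7 and 15.8 CPM in Brn3a HET libraries (-3.26 ± 0.32, adjusted p = 0.00201), and its call held in all 4 leave-one-out fits. Isl2, a LIM-homeodomain factor of ganglion cells that project across the midline, measured 7.63 and 5.69 CPM in Brn3b HET and 59.7 and 50.2 CPM in Brn3a HET libraries (-3.03 ± 0.69, adjusted p = 0.0443). Its relative Isl1 had 82.3 and 155 CPM in Brn3b HET and 141 and 133 CPM in Brn3a HET libraries, which overlapped (-0.19, adjusted p = 0.737).

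Ecel1, an endopeptidase that rises after nerve injury, was at 7.39 and 4.79 CPM in Brn3b HET and 87.8 and 72.0 CPM in Brn3a HET libraries (-3.70 ± 0.65, edgeR adjusted p = 0.0253). Shisa9, an auxiliary protein of AMPA receptors, measured 1.33 and 1.74 CPM in Brn3b HET and 17.1 and 14.5 CPM in Brn3a HET libraries (-3.35 ± 0.48, adjusted p = 0.0121). The zinc-finger factor Bnc2 had 1.33 and 3.83 CPM in Brn3b HET and 21.6 and 18.6 CPM in Brn3a HET libraries (-2.95 ± 0.65, adjusted p = 0.0436). Ano3, an anoctamin gene, and Zfp804b, a zinc-finger gene, were also among the falls, at -2.92 and -2.67. All of these lay under the pan-ganglion median of -0.92, but they were chosen as the largest falls, so that says nothing more about them.

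Genes that mark other ganglion cell sets had more calls lower than higher, where 1.82% of all genes were lower and 2.03% higher. Of 16 tested genes of Foxp2-expressing and T5 ganglion cells, 5 were lower (Tusc5, Foxp2, Serpinb1b, Irx4 and Zic1), 1 was higher (Ctxn3) and 10 did not pass, with a median of -0.99. Foxp2, a forkhead factor, was at 16.7 and 24.7 CPM in Brn3b HET and 86.9 and 88.1 CPM in Brn3a HET libraries (-2.07 ± 0.39, edgeR adjusted p = 0.0308). The Iroquois factor Irx4 measured 6.65 and 10.4 CPM in Brn3b HET and 47.4 and 40.4 CPM in Brn3a HET libraries (-2.35 ± 0.50, adjusted p = 0.0405), so Irx1 and Irx4 differed in opposite directions. Zic1 had 18.7 and 8.05 CPM in Brn3b HET and 60.3 and 50.9 CPM in Brn3a HET libraries (-2.04 ± 0.45, adjusted p = 0.0436). The related Zic2, which directs axons to the same side of the brain, ran the other way, at 23.1 and 18 CPM in Brn3b HET and 7.03 and 6.07 CPM in Brn3a HET libraries (1.66 ± 0.22, adjusted p = 0.00813), below its 56.6 and 40.9 CPM in the Brn3b HET and Brn3a HET unbound cells.

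Of 14 genes of direction-selective ganglion cells, 3 were lower (Col25a1, Cartpt and Calb2) and 0 higher, where 1.82% of all genes were lower. Their median of -0.52 fell less than the pan-ganglion median of -0.92, as did the median of the alpha ganglion cell genes (-0.47). Calb2 (calretinin), a calcium-binding protein, was at 237 and 286 CPM in Brn3b HET and 1094 and 956 CPM in Brn3a HET libraries (-1.96 ± 0.45, edgeR adjusted p = 0.0457). The collagen gene Col25a1 measured 7.85 and 15.1 CPM in Brn3b HET and 43.4 and 45.6 CPM in Brn3a HET libraries (-1.94 ± 0.32, adjusted p = 0.0204). Cartpt, the CART peptide gene, had 6.71 and 3.77 CPM in Brn3b HET and 16.3 and 15.8 CPM in Brn3a HET libraries (-1.61 ± 0.33, adjusted p = 0.0360). The 10 alpha ganglion cell genes had Calb2 as their only call, and the peptide gene Nts, which stood under 0.1 CPM in both Brn3b HET libraries and at 2.30 and 2.64 CPM in Brn3a HET libraries (-4.78 ± 0.68, adjusted p = 0.0121), passed among 17 neuropeptides.

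**Figure D3:**
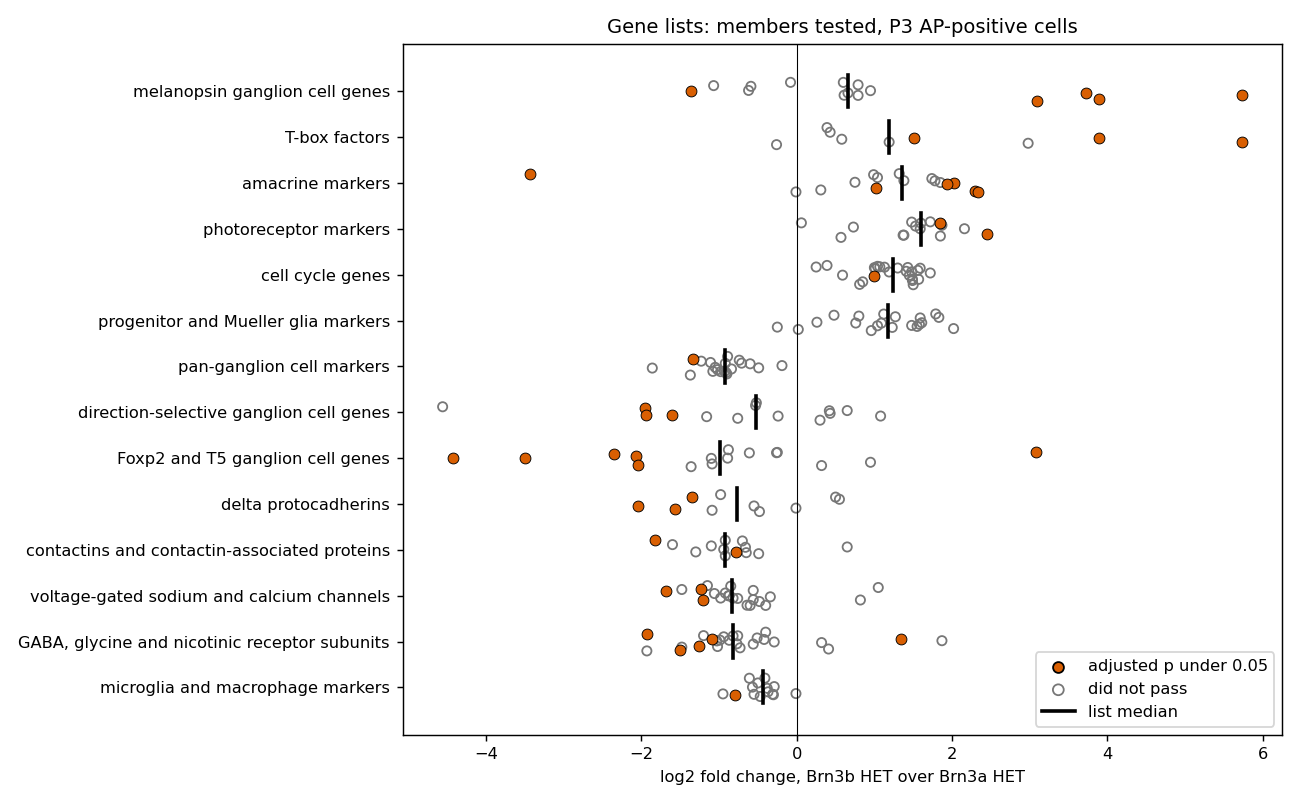
Log2 fold change, Brn3b HET over Brn3a HET, of every tested member of 14 gene lists (filled points, adjusted p under 0.05; open points, did not pass; bars, list medians). The photoreceptor and cell cycle medians lie at 1.60 and 1.25, the pan-ganglion median at -0.92, and the melanopsin list spreads from -1.36 (Adcyap1) to 5.74 (Tbx20).

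Among adhesion molecules, which sort neurites and synapses, the calls were mostly lower. Over all genes, 1.82% were lower and 2.03% higher. Of 10 delta protocadherins, 3 were lower and 0 higher, with a median of -0.76, which fell less than the pan-ganglion median of -0.92. Pcdh7 was at 58.9 and 82.0 CPM in Brn3b HET and 305 and 285 CPM in Brn3a HET libraries (-2.05 ± 0.26, edgeR adjusted p = 0.00779), with 85.3 and 48.1 CPM in the Brn3b HET and Brn3a HET unbound cells. Pcdh17 (-1.35) and Pcdh8 (-1.57) were the others that passed. Of 13 contactins and contactin-associated proteins, 12 had a negative log2 fold change and 2 passed, Cntn1 (-0.78 ± 0.13, adjusted p = 0.0224) and Cntnap4 (-1.82 ± 0.40, adjusted p = 0.0419). Among 20 cadherins, Cdh7, Cdh13 and Cdh12 were lower and Cdh3 was higher, and the list's median was 0.10. Of the other adhesion lists, the leucine-rich repeat genes Flrt2 and Slitrk3 were lower and Flrt3 was higher, Igsf3 and Alcam were lower and Jam3 was higher, and 0 of 9 copines passed.

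Axon guidance genes were called in both directions. Of 19 Robo, Slit, netrin and Dcc genes, 5 were higher and 1 lower, where 2.03% of all genes were higher and 1.82% lower. Their median was -0.01. The netrin receptor genes Unc5a and Unc5b, the Slit receptor gene Robo1, the Robo-family gene Robo3 and the netrin-related Ntng2 were higher. Ntng2 measured 126 and 116 CPM in Brn3b HET and 43.4 and 32.9 CPM in Brn3a HET libraries (1.68 ± 0.35, edgeR adjusted p = 0.0379), and Robo3 had 75.3 and 80.9 CPM in Brn3b HET and 27.8 and 24.5 CPM in Brn3a HET libraries (1.59 ± 0.34, adjusted p = 0.0409). The ligand gene Slit2 was lower, at 36.4 and 42.6 CPM in Brn3b HET and 65.3 and 65.7 CPM in Brn3a HET libraries (-0.72 ± 0.15, adjusted p = 0.0373). Of 31 semaphorins, plexins and neuropilins, Sema6a was lower (-1.25) and Plxnb1 higher (0.60). Of 13 EphA and ephrin-A genes, the receptor gene Epha8 passed as higher (1.27 ± 0.30, adjusted p = 0.05 as rounded, and under it before), and 0 of 8 EphB and ephrin-B genes passed. Gfra1, a co-receptor for GDNF, was the 1 call among 15 neurotrophin and GDNF-family receptors, at 31.5 and 24.4 CPM in Brn3b HET and 7.85 and 11.8 CPM in Brn3a HET libraries (1.52 ± 0.28, adjusted p = 0.0289).

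Genes of excitability and synaptic signalling had mostly negative log2 fold changes, as had the pan-ganglion markers, and few passed. Over all genes, 1.82% passed as lower and 2.03% as higher. Of 22 sodium and calcium channel genes, 20 had a negative log2 fold change (median -0.83) and 3 passed as lower, among them the T-type calcium channel gene Cacna1i (-1.68 ± 0.24, edgeR adjusted p = 0.0121) and the sodium channel gene Scn1a (-1.21). Of 35 potassium channel genes, 31 were negative (median -0.54) and Kcnab2 and Kcna2 passed. Of 25 GABA, glycine and nicotinic receptor subunits, 4 GABA-A subunits were lower. The nicotinic subunit gene Chrnb4 was the 1 call of this list in the other direction, at 84.4 and 73.7 CPM in Brn3b HET and 31.7 and 31.3 CPM in Brn3a HET libraries (1.34 ± 0.19, adjusted p = 0.0121). The AMPA receptor gene Gria3 (-1.99 ± 0.43, adjusted p = 0.0408) passed among 18 glutamate receptor subunits, and the release genes Cplx1 (-1.42) and Syt1 (-0.92) among 26 synaptic vesicle genes. Dusp1 (-0.87) and Zfp36 (-1.23), were lower among 16 stress and immediate early genes, where Fos, at 290 and 190 CPM in Brn3b HET and 409 and 462 CPM in Brn3a HET libraries, did not pass (adjusted p = 0.0978).

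Several regulators of other retinal neurons were higher. Of 6 tested horizontal cell markers, Onecut1 and Onecut2 were higher and 4 did not pass. Of these 4, Prox1 (0.93) and Sept4 (0.34) were higher without overlap, Lhx1 (0.75) overlapped and Tpm3 (-0.33) was lower without overlap. The list's sum overlapped, at 367 and 485 CPM in Brn3b HET and 402 and 395 CPM in Brn3a HET libraries. Onecut1 measured 14.8 and 28.1 CPM in Brn3b HET and 5.22 and 7.13 CPM in Brn3a HET libraries (1.81 ± 0.36, edgeR adjusted p = 0.0323), above the 9.37 and 7.75 CPM of the Brn3b HET and Brn3a HET unbound cells. The amacrine factor Tfap2a had 65.3 and 70.6 CPM in Brn3b HET and 12.4 and 14.8 CPM in Brn3a HET libraries (2.33 ± 0.54, adjusted p = 0.0462), with 137 and 129 CPM in the Brn3b HET and Brn3a HET unbound cells. Cbln4, a synaptic organiser, was the amacrine-list member that fell, at 0.652 and 0.988 CPM in Brn3b HET and 8.07 and 9.96 CPM in Brn3a HET libraries (-3.44 ± 0.72, adjusted p = 0.0382). Dlx1 and Dlx2, homeodomain factors, were higher at low levels, Dlx1 at 3.23 and 3.98 CPM in Brn3b HET and 1.00 and 0.891 CPM in Brn3a HET libraries (1.94 ± 0.17, adjusted p = 0.00128). The proneural factor Neurod4 measured 1176 and 840 CPM in Brn3b HET libraries, against 215 CPM in both Brn3a HET libraries (2.24 ± 0.49, adjusted p = 0.0422), against 1127 and 1096 CPM in the Brn3b HET and Brn3a HET unbound cells.

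The KO libraries gave the same comparison of loci in other libraries, fitted together with the HET libraries. Brn3b KO cells differed from Brn3a KO cells at 5994 genes (36% of those tested), with 2786 higher (16.7%) and 3208 lower (19.2%). Of the 338 genes higher in Brn3b HET, 325 were also higher in Brn3b KO, which is 96.2% of the HET and 11.7% of the KO calls. Of the 304 lower in Brn3b HET, 282 were lower in Brn3b KO, which is 92.8% of the HET and 8.79% of the KO calls. Across all genes tested the log2 fold changes of both comparisons correlated at 0.565. The pan-ganglion marker sum was lower in Brn3b cells in KO too, at 2299 and 2628 CPM in Brn3b KO and 12852 and 9045 CPM in Brn3a KO libraries, and the part of cell make-up in the shared calls was not tested.

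By the test of the difference between both comparisons, 2 genes (0.012%) differed, where 1471 (8.82%) had an unadjusted p under 0.05. The first was Pou4f2, itself the marked gene, whose contrast was -0.04 in HET and -4.06 in KO (difference 4.01 ± 0.37, edgeR adjusted p = 0.0136). The second was Dlx1, whose contrast was 1.94 in HET and 4.32 in KO (difference -2.38 ± 0.26, adjusted p = 0.0354). Leaving out 1 of the 8 libraries of P3 kept the call of Pou4f2 in 4 of 8 fits (difference 3.65 to 4.29) and that of Dlx1 in 1 of 8 (-2.57 to -2.23), and with those 8 libraries alone neither passed (adjusted p = 0.0694 for Pou4f2 and 0.116 for Dlx1). Pou4f1 was lower by 1.13 without passing in HET and was higher by 2.44 ± 0.50 in KO (adjusted p = 0.00575), and the difference of -3.57 did not pass (adjusted p = 0.124).

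Several of the leading genes had unlike values in KO, though no difference among them passed. Tbx20 was at 4.44 and 5.65 CPM in Brn3b KO and 0.577 and 2.27 CPM in Brn3a KO libraries (1.80 ± 0.53, edgeR adjusted p = 0.0251), and the difference between the HET and KO contrasts was 3.94 ± 0.75 (adjusted p = 0.124). Tusc5 measured 1.73 and 5.30 CPM in Brn3b KO and 4.46 and 2.97 CPM in Brn3a KO libraries (-0.11, adjusted p = 0.905, difference -4.32 ± 0.86 with adjusted p = 0.124), so its high level was seen in the Brn3a HET libraries and in none of the other P3 libraries. Eomes had 34 and 29 CPM in Brn3b KO and 4.19 and 6.13 CPM in Brn3a KO libraries (2.59 ± 0.36, adjusted p = 0.00125). Pou4f3, at 3.40 and 7.35 CPM in Brn3b KO and 99.3 and 63.1 CPM in Brn3a KO libraries, was again lower (-3.94 ± 0.68, adjusted p = 0.00277), as were Isl2 (-3.25) and Ecel1 (-4.72). Zic1 was not lower in Brn3b KO cells (1.17, adjusted p = 0.0655).

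**Figure D4:**
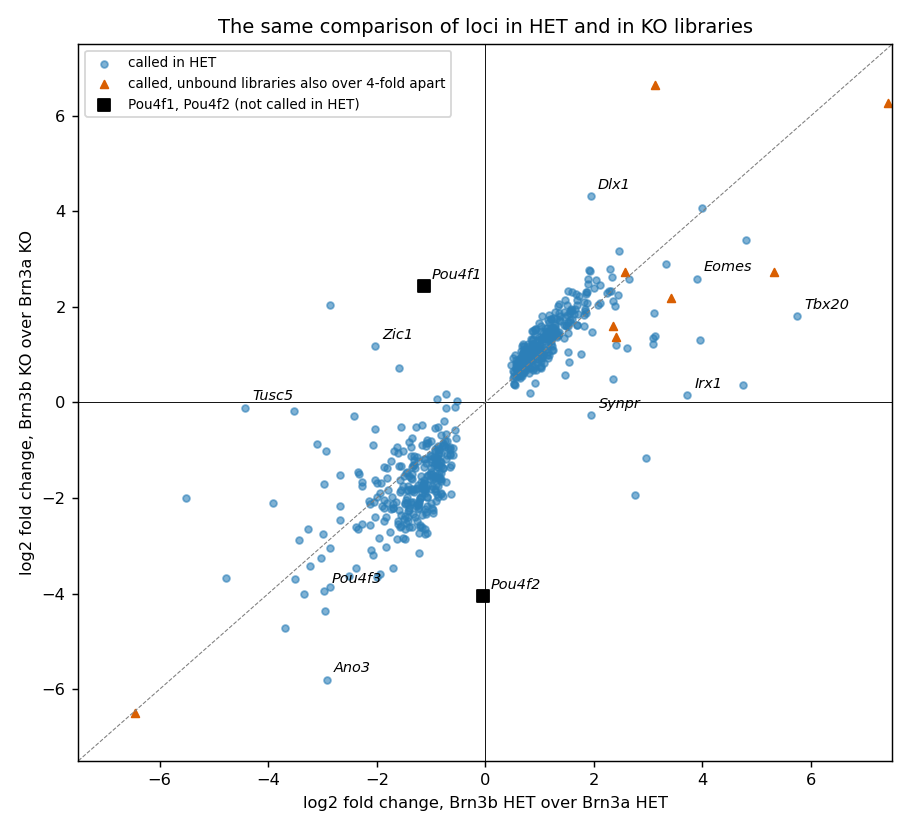
Log2 fold change of the genes called in HET, Brn3b over Brn3a, in HET (x) and in KO libraries (y), with axes cut at 7.5 so that 23 of 642 genes lie outside, the dashed line marking equal values, triangles the called genes whose unbound libraries also differ over 4-fold, and squares Pou4f1 and Pou4f2, which were not called in HET. Most points share their sign in both, Tusc5, Irx1 and Zic1 lie near or across the horizontal axis, and Pou4f2 sits at -0.04 in HET and -4.06 in KO.

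A set of calls followed the mouse line in bound and unbound cells alike. Of the 642 called genes, 23 also differed over 4-fold between the Brn3b and Brn3a unbound libraries, in the same direction in HET and in KO, and 21 of these are predicted genes or pseudogenes by their symbols. The other two were Rpl34, a ribosomal protein, and Ftl2, a ferritin light chain copy. Ftl2 was at 1.25 and 0 CPM in Brn3b HET and 419 and 432 CPM in Brn3a HET libraries, and at 1.31 CPM in the Brn3b HET and 151 CPM in the Brn3a HET unbound library. Its main copy Ftl1, chosen after its values were seen, went the other way, at 1029 and 961 CPM in Brn3b HET and 455 and 492 CPM in Brn3a HET libraries. Rpl34 measured 122 and 159 CPM in Brn3b HET and 21.3 and 26.1 CPM in Brn3a HET libraries, and at 225 and 34.9 CPM in the Brn3b HET and Brn3a HET unbound cells. For all 23 genes the 6 Brn3b and the 6 Brn3a libraries of P3 did not overlap. The HET AP-positive and all unbound libraries of P3 had served to choose these genes, so this was largely set by the choice. At 19 of the 23 the 6 Brn3b libraries of embryonic day 15 were nearer to the Brn3b than to the Brn3a libraries of P3. Pseudogenes can share reads with near-identical copies, so counts of such genes are uncertain. Sequence likeness, the reference used for each library and the strain background at these loci were not tested. These 23 genes are not read further, though they stay in the other counts of called genes. Without them 619 called genes remain.

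Genes near the targeted loci were counted because each group carries an engineered chromosome there. Within 10 Mb of Pou4f1 on chromosome 14, 2 of 31 tested genes were called (6.45%, against 3.85% of all genes), Spry2 as higher (1.11) and Kctd12 as lower (-0.81). Within 10 Mb of Pou4f2 on chromosome 8, 11 of 236 were called (4.66%), among them Rps13-ps1, which belongs to the 23 genes above. The largest of these apart from the pseudogene Rps13-ps1 was Hmox1, the heme-degrading enzyme, at 123 and 77.0 CPM in Brn3b HET and 371 and 432 CPM in Brn3a HET libraries (-2.00 ± 0.31, edgeR adjusted p = 0.0167), with under 4 CPM in the unbound cells. The others were Rasd2, Ocel1, Lpl and Scoc, which were lower, and Med26, Smarca5, Gadd45gip1, Gab1 and Slc10a7, which were higher. Slc10a7 is the nearest of them to Pou4f2, at 25.9 and 29.3 CPM in Brn3b HET and 15.9 and 15.6 CPM in Brn3a HET libraries (0.82 ± 0.15, adjusted p = 0.0298), and its KO contrast was 0.20 (adjusted p = 0.341).

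Many calls rested on all 4 libraries, and 551 of the 642 were made in none of the leave-one-out fits. Leaving out 1 of them left 25 to 81 calls, and 20 of the 642 genes were called in all 4 such fits, 10 of which belong to the 23 genes above. The other 10, named here after their values were seen where no list or rank names them, were Eomes, Prkcq and Dlx1, which were higher, and Npy1r, Nptx2, Mgll, Rnf152, Six3, Arhgap26 and Lynx1, which were lower. Nptx2, a secreted pentraxin of synapses, had 20.4 and 18.8 CPM in Brn3b HET and 87.6 and 75.4 CPM in Brn3a HET libraries (-2.04 ± 0.17, edgeR adjusted p = 0.00111). Tbx20 was called in 3 of the 4, with an adjusted p of 0.0526 at most. Opn4 (adjusted p 0.0803 to 0.21), Pou4f3 (0.0952 to 0.268), Tusc5 (0.068 to 0.148) and Isl2 (0.113 to 0.256) kept their direction and were called in 0 of the 4 edgeR fits. A further fit took as a covariate the mean level of 60 progenitor, cell cycle and photoreceptor markers, chosen after seeing the data. It called 27 genes, 26 of them among the 642. The mean (log2) was 5.7 and 5.31 in Brn3b HET and 4.27 and 4.31 in Brn3a HET libraries. The covariate thus largely moved with the compared groups, so the fit cannot say what a lost call was due to. In that fit Eomes (4.53, adjusted p = 0.00932), Tbx20 (5.82, adjusted p = 0.0336), Prkcq (3.31, adjusted p = 0.0362), Ctxn3 (3.93, adjusted p = 0.0362) and Npy1r (-3.30, adjusted p = 0.0432) passed, and Pou4f3 (-1.71, adjusted p = 0.589), Isl2 (-1.09, adjusted p = 0.650) and Opn4 (3.94, adjusted p = 0.222) did not.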

How the data were processed

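RNA was read from 18 retinal and 9 brain libraries; 4 retinal libraries make up the comparison and 8 further AP-positive libraries lent their spread. Per the labels' protocols, stranded mRNA libraries of the retina were read single-end at 76 bases. The authors deposited estimated counts per Ensembl transcript, not normalized, with GRCm38 coordinates and transcript lengths, which entered TPM here. Trimmomatic 0.32, Bowtie2 2.2.1, eXpress 1.3.1 and the build GRCm38.p3 are named per the submitters' processing notes; their roles and the use of strand in counting are not given in the sources used here. Counts of overlapping or antisense genes and of near-identical copies are therefore uncertain.

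Estimated counts were summed per gene (88198 transcripts, 30735 genes) and rounded. In edgeR 4.0.16 (R 4.3.3), 12 AP-positive libraries in 6 groups were fitted with TMM scaling, filterByExpr (minimum count 10) and tested by quasi-likelihood, and p-values were Benjamini-Hochberg adjusted over 16673 genes; the SE is the log2 fold change over the root of F. Printed CPM use TMM factors of all 18 retinal libraries. Unbound cells have 1 library a group and were not tested; their log2 differences use a pseudocount of 0.5 CPM. The code was tested on simulated data. Alternatives were other scaling, no filter, DESeq2 1.42.0, other sets of libraries, a replicate block, leaving out each library and a marker covariate.

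The comparison, the 44 gene lists and the naming rule were chosen with earlier results of these data known. The rule names Pou4f1 to Pou4f3, up to 12 genes higher and 12 lower by fold (called, no overlap, group mean of 10 CPM or more where higher, no predicted genes), up to 4 members of a list by p with defining markers, up to 5 genes for the difference of comparisons, and called genes within 10 Mb of a targeted locus. Further called list members are named where a list has more. Some genes that the rule names are not reported here. Replicate numbers are not said to pair libraries. Promoter sequences are from RefSeq (GRCm38.p6).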

Additional observations from a re-analysis of the deposited data

Results flagged for a closer look

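The effect of comparing Brn3b with Brn3a cells differed between HET and KO libraries at 2 genes by the interaction test of the edgeR fit. For Pou4f2 the difference of both log2 fold changes, HET minus KO, was 4.01 (adjusted p = 0.0136). Brn3b HET and Brn3a HET libraries held 188 and 286 CPM and 242 and 252 CPM, whereas Brn3b KO and Brn3a KO libraries held 21.3 and 18.8 CPM and 389 and 266 CPM. Pou4f2 is the gene removed in Brn3b KO mice. For Dlx1, a homeodomain factor of interneurons, the difference was -2.38 (adjusted p = 0.0354), from 3.23 and 3.98 CPM in Brn3b HET against 1.00 and 0.891 CPM in Brn3a HET libraries, and 7.05 and 7.27 CPM in Brn3b KO against 0.304 and 0.394 CPM in Brn3a KO libraries. Over 15 alternatives the adjusted p of Dlx1 ran from 9.19e-06 (DESeq2) to 0.253 (edgeR) and passed in 5, being lost with the replicate block (0.0789), the marker covariate (0.0876), the libraries of P3 alone (0.116) and 7 of the 8 fits without 1 library. That of Pou4f2 ran from 6.97e-22 (DESeq2) to 0.113 (edgeR) and passed in 10, being lost with the libraries of P3 alone (0.0694) and in 4 fits without 1 library, each of a Brn3a HET or Brn3b KO replicate. The sign was the same in all 15 for both genes.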

How the results depend on the processing

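For Brn3b HET against Brn3a HET, the 642 calls became 1393 with no filter on low counts, 3173 with the compared groups alone, 3048 with DESeq2 and 27 with the marker covariate. Leaving out 1 library gave 25 calls (without Brn3a HET replicate 1), 40 (Brn3a HET replicate 2), 45 (Brn3b HET replicate 1) and 81 (Brn3b HET replicate 2), the lone library being assumed to vary like the other groups. With the 8 AP-positive libraries of P3 alone there were 872 calls, 324 higher and 548 lower (37.2% higher, against 52.6%). For the KO comparison the 5994 calls became 3827 with the compared groups alone, 17 with the covariate and 2742 to 6160 without 1 library (2742 without Brn3a KO replicate 1, 3551 without Brn3b KO replicate 1 and 3812 without Brn3b KO replicate 2). For the difference of both comparisons the 2 calls became 53 with no filter, 334 with DESeq2, 0 with the libraries of P3 alone (1736 at an unadjusted p under 0.05, by edgeR), 1 with the covariate and 0 to 2 without 1 library (0 without Brn3a HET replicate 1 or Brn3b KO replicate 1); the groups compared are there the libraries of P3, so that fit is the same.

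The replicate numbers share only a number: deviations of same-numbered libraries correlated at 0.014 in HET and -0.069 in KO. With them as a replicate block, 490 genes were called in HET and 1, Pou4f2, for the difference. Among single genes, values turned sign at 1 or more alternatives for genes that had not passed. Without Brn3b HET replicate 1, Pou4f2 stood at 0.23 and Tbr1 at 0.04, and without Brn3b HET replicate 2 they stood at -0.38 and -0.64. With the covariate, Pou4f1 stood at 0.12, Pou4f2 at 0.66, Ccnd1 at -0.20, Dct at -0.77, Epha3 at -0.03, Ephb3 at 0.26, Irx3 at 0.38, Kdr at -0.51, Lhx2 at -0.32, Tbx2 at -0.04 and Tyrp1 at -0.61. Ccnd1 and Lhx2 are among the markers that make up the covariate, so their own values enter it and their change of sign is not separate information. The cause of these changes was not tested, beyond the smaller number of libraries where some were left out.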
